A study of Homo sapiens with 6 samples.

Results

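The 6 mismatch repair genes MSH6, MSH3, PMS1, PMS2, MLH3 and EXO1 were examined by RNA-seq of MOLT-4 cells. MOLT-4 is a long-established line of human T-ALL, the T-cell form of acute lymphoblastic leukemia. The genes were picked by symbol, with earlier results of these data known, as 6 of the 60640 gene identifiers in the expression tables, and all 6 were among the 12652 genes expressed highly enough to be tested. PolyA RNA had been sequenced from 3 wild type libraries, made from the control of the CRISPR knockout, and from 3 libraries labelled IK-KO, made from cells whose IKZF1 gene, which encodes the DNA-binding regulator IKAROS, had been targeted with CRISPR-Cas. Both groups were MOLT-4 cells grown in the same medium, with no drug or time course. The edited cells and their control were bought as a finished line, the labels name no clone, and they do not say whether replicates were separate cultures, so p-values measure only the spread between these libraries, which may be technical. Other differences between the edited cells and their control cannot be told apart from the loss of IKAROS.

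Mismatch repair corrects base mispairs and small loops that DNA polymerases leave behind. A MutS complex recognizes the error, with MSH6 as the subunit for base mismatches and short loops and MSH3 as its alternative for longer insertion or deletion loops. A MutL complex is then recruited, in which PMS2, PMS1 and MLH3 are alternative subunits, PMS2 being the one that nicks the new strand in most repair. EXO1 is the exonuclease that removes the stretch holding the error, after which the gap is filled by replication enzymes. Loss of this pathway in leukemia is known for raising mutation rates and for tolerance of thiopurine drugs.

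Values are FPKM (fragments per kilobase of transcript and per unit of mapped fragments), a scale that is corrected for length and so allows levels of different genes to be compared. FPKM above 0 were given for 21254 to 21887 rows per library, and relative depth, judged from the deposited confidence bounds, lay between 0.901 and 1.09 of the mean of the 6 libraries. At 1 kilobase of transcript, each FPKM unit rested on 15.0 to 18.2 fragments. All 12 T-lineage markers examined, among them CD3E, CD7, RAG1 and DNTT, were expressed, with summed levels of 1242 to 1299 FPKM in wild type and 1214 to 1375 in libraries labelled IK-KO. None of the marker genes of B cells, myeloid cells, erythroid cells or fibroblasts reached a mean FPKM of 1. IKZF1 itself was at 134, 124 and 105 FPKM in wild type replicates 1 to 3, and in replicates 1 to 3 labelled IK-KO it was at 207, 260 and 207. The targeted transcript was thus higher in the edited cells, and the groups are named below as they were labelled. A transcript level does not show whether protein is made, and the study's methods state that loss of IKAROS in this line was checked by PCR and protein blot.

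A change is given as the difference of log2(FPKM + 1), libraries labelled IK-KO minus wild type, tested with limma and called at a Benjamini-Hochberg adjusted p under 0.05 over all 12652 genes. This scale understates changes of genes with low FPKM. Of all tested genes 19.9% were called, 10.1% higher and 9.75% lower in libraries labelled IK-KO. Among the mismatch repair genes, MSH6 was called higher and the other 5 were not called in either direction. That is 1 of 6 members, which by its share is close to the share of all genes. Groups did not overlap for 39.0% of all tested genes and for 3 of the 6 members, namely MSH6, MLH3 and EXO1.

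**Figure D1:**
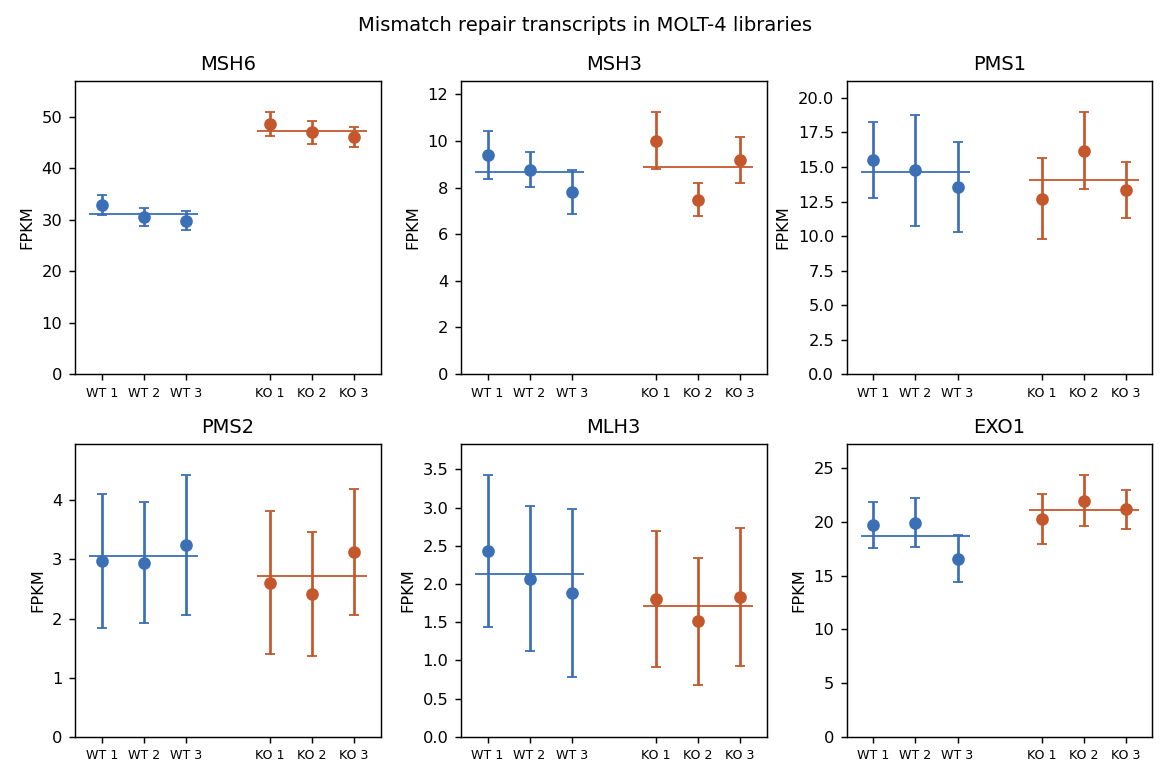
Level of each mismatch repair transcript (FPKM, vertical axis, from 0) in the 3 wild type (WT) and the 3 IK-KO (KO) libraries. Points are libraries, bars the deposited 95% confidence bounds of each estimate, and horizontal lines the group means. MSH6 lies between 29.8 and 32.8 FPKM in wild type and between 46.0 and 48.6 in libraries labelled IK-KO, with bounds that do not meet, while the bounds of the other 5 genes overlap between groups.

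MSH6, the mismatch-recognition subunit, had the highest level of the 6 genes and was the member that rose. MSH6 (ENSG00000116062.16) lies on the plus strand of chromosome 2 between 47695530 and 47810101 on hg38, and its canonical transcript starts at 47783145. Its level was 32.8, 30.6 and 29.8 FPKM in wild type replicates 1 to 3, and in replicates 1 to 3 labelled IK-KO it was 48.6, 47.0 and 46.0 FPKM. Every library labelled IK-KO was above every wild type library, and values within a group lay close together. The means were 31.1 ± 1.58 and 47.2 ± 1.28 FPKM (SD, n = 3 each), a ratio of 1.52. The log2 change was 0.59 (SE 0.06, 95% interval 0.45 to 0.73), with a limma adjusted p of 0.000819. The exact permutation test over libraries gave p = 0.1, two-sided, the smallest value that 3 against 3 libraries allow. In size the change exceeded that of 88.3% of the tested genes.

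The precision of each MSH6 estimate was high relative to the difference. The deposited 95% bounds had a half-width of 4.22% to 6.31% of the value, which covers counting and assignment error only. The highest upper bound in wild type was 34.8 FPKM and the lowest lower bound in libraries labelled IK-KO was 44.1 FPKM. All 13 other settings of the fit also called MSH6 higher, with adjusted p between 0.00052 and 0.00698.

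The sequence before the MSH6 start is printed here because MSH6 is the member that rose, next to those of PMS2 and MLH3, which had the lowest levels. These are reference sequences of RefSeq (GRCh38.p14), taken from the 250 bases before each start and cut to the longest run that no annotated exon covers. Motif letters are in capitals, on either strand: GGGCGG (known for Sp1), CCAAT (NF-Y), TTTGGCGC and TTTCCCGC (E2F), and TGGGAA (the IKAROS core).
MSH6, chr2:47782895-47783081, plus strand: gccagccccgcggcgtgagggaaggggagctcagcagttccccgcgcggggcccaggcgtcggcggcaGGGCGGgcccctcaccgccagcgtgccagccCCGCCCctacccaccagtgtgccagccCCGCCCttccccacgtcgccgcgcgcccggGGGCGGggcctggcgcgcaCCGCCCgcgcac
PMS2, chr7:6009131-6009254, minus strand: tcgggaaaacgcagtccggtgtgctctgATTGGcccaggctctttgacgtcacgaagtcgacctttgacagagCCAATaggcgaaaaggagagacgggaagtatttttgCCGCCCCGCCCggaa
MLH3, chr14:75051533-75051717, minus strand: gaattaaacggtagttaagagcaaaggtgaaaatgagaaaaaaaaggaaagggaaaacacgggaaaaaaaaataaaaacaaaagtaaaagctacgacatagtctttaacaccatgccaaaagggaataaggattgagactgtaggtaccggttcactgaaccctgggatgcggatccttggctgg
The MSH6 stretch of 187 bases held 5 GGGCGG matches and none of the other motifs, and 82.4% of its bases were G or C. The PMS2 stretch of 124 bases, which separates PMS2 from its divergent neighbour AIMP2, held 2 GGGCGG matches that overlap by 1 base and 2 CCAAT matches. The MLH3 stretch of 185 bases held no match to any of the 5 motifs, and its G and C share was 39.5%.

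The whole windows of 250 bases were searched too, 1 per member, at its canonical start. The RefSeq table lists 4 promoters for MSH6 and 2 each for PMS2 and EXO1, and their other promoters were not searched. TGGGAA was found in none of the 6 windows, against 20.8% of 35116 promoters in the RefSeq table. GGGCGG was found in the windows of 5 members, all but MLH3, against 42.6% of all promoters. CCAAT was found in those of MSH6, PMS1 and PMS2, against 32.0%. TTTGGCGC was found only in that of MSH3, against 0.550% of all promoters, and TTTCCCGC in none of the 6, against 1.39%. Copies of GGGCGG can overlap each other and were each counted, and a match describes letters in the window, not binding.

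MSH3, the alternative recognition subunit for longer loops, did not pass the test. MSH3 (ENSG00000113318.11, chromosome 5, 80654652 to 80876815, plus strand) was at 9.41, 8.78 and 7.82 FPKM in wild type replicates 1 to 3, and in replicates 1 to 3 labelled IK-KO it was at 10.0, 7.48 and 9.18 FPKM. Both the highest and the lowest of the 6 values came from libraries labelled IK-KO, so the groups overlapped. The means were 8.67 ± 0.799 and 8.89 ± 1.29 FPKM (SD, n = 3 each). The log2 change was 0.03 (SE 0.12, 95% interval -0.26 to 0.32, limma adjusted p = 0.903). The interval does not hold a change of the size seen in MSH6. The sign turned to -0.04 without wild type replicate 3 and to -0.05 without IK-KO replicate 1, so no direction is given.

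The ratio of the recognition subunits separated the groups. It largely restates the MSH6 difference, since the log2 change of MSH3 was 0.03, and is not a separate result. The ratio of MSH6 to MSH3 FPKM was 3.49, 3.48 and 3.81 in wild type replicates 1 to 3, and in replicates 1 to 3 labelled IK-KO it was 4.85, 6.29 and 5.01. All ratios labelled IK-KO were above all wild type ratios. The means were 3.60 ± 0.187 and 5.38 ± 0.787 (SD, n = 3 each), a log2 difference of 0.57. The exact permutation test gave p = 0.1, two-sided, the smallest possible here. Expressed as a share, MSH6 made up 78.2% ± 0.866 of the summed MSH6 and MSH3 FPKM in wild type and 84.2% ± 1.83 in libraries labelled IK-KO (SD, n = 3 each). These are shares of transcripts and not of proteins or complexes.

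MSH5, a MutS homolog known for its role in meiotic recombination rather than in mismatch repair, was also examined with its meiotic partner MSH4. MSH5 was at 32.1, 28.5 and 28.2 FPKM in wild type replicates 1 to 3, and in replicates 1 to 3 labelled IK-KO it was at 40.7, 34.4 and 33.4 FPKM. The groups did not overlap, but the log2 change of 0.28 did not pass the test (limma adjusted p = 0.078). MSH4 was under the level for testing, with a highest FPKM of 0.164 in any library.

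**Figure D2:**
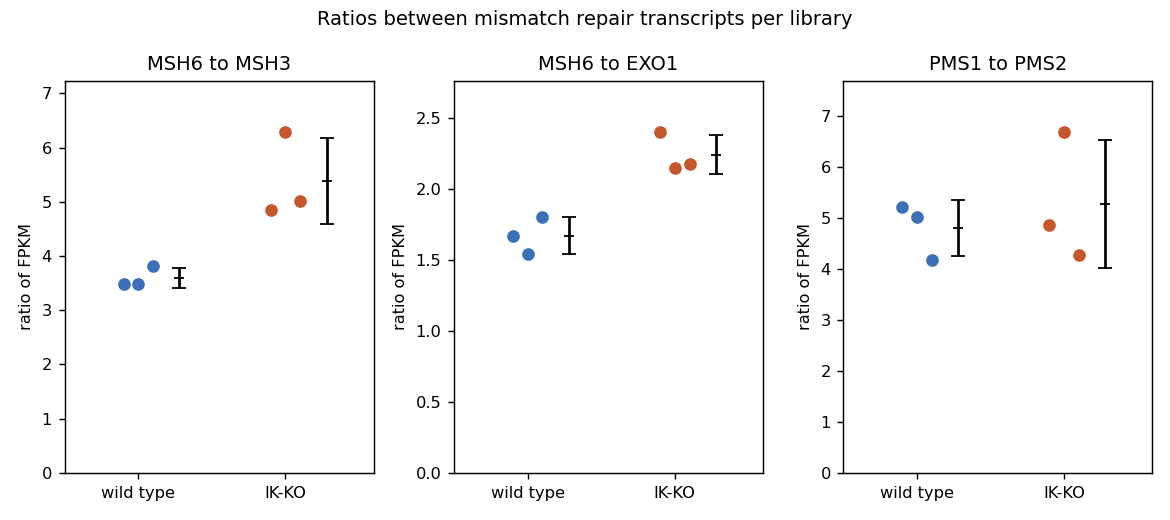
Ratio of FPKM between pairs of mismatch repair transcripts (vertical axes, from 0) in each wild type and each IK-KO library. Points are libraries, and black marks with bars are the group mean and SD (n = 3 each). The groups are separate for MSH6 to MSH3 and for MSH6 to EXO1, and overlap for PMS1 to PMS2.

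None of the MutL subunits PMS1, PMS2 and MLH3 passed the test. PMS1 (ENSG00000064933.17, chromosome 2, 189784085 to 189877629, plus strand), whose part in repair is less clear than that of PMS2, had the highest level among these subunits. It was at 15.5, 14.8 and 13.5 FPKM in wild type replicates 1 to 3, and in replicates 1 to 3 labelled IK-KO it was at 12.7, 16.2 and 13.3 FPKM. The highest and the lowest value were again both from libraries labelled IK-KO. The means were 14.6 ± 0.991 and 14.1 ± 1.85 FPKM (SD, n = 3 each), and the log2 change was -0.05 (SE 0.10, 95% interval -0.30 to 0.19, limma adjusted p = 0.764). Without IK-KO replicate 1 the change was 0.01, so no direction is given.

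PMS2 (ENSG00000122512.16, chromosome 7, 5970925 to 6009106, minus strand), the endonuclease subunit, was expressed at a low level. It was at 2.97, 2.94 and 3.24 FPKM in wild type replicates 1 to 3, and in replicates 1 to 3 labelled IK-KO it was at 2.61, 2.42 and 3.12 FPKM. IK-KO replicate 3 lay within the wild type range and the other two below it. The means were 3.05 ± 0.165 and 2.72 ± 0.364 FPKM (SD, n = 3 each), and the log2 change was -0.13 (SE 0.13, 95% interval -0.42 to 0.17, limma adjusted p = 0.528).

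The PMS2 values are uncertain because near-identical copies of the gene can share its fragments. The tables list 11 PMS2 pseudogene rows, PMS2CL included, whose FPKM summed to 34.3 ± 3.39 in wild type and 30.7 ± 1.28 in libraries labelled IK-KO (SD, n = 3 each). Their sum was 9.74 to 13.2 times the PMS2 level of the same library. Of the 7 copies that could be tested, 1 was called, against 19.9% of all tested genes. It was PMS2P1, which is named because of its value. PMS2P1 fell from 15.4 ± 1.33 to 12.0 ± 0.521 FPKM (SD, n = 3 each; log2 change -0.34, limma adjusted p = 0.0327), a call held by 6 of the 13 other settings and lost when any library but wild type replicate 3 was left out (largest adjusted p = 0.106). How fragments were divided between PMS2 and its copies was not tested.

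MLH3 (ENSG00000119684.15, chromosome 14, 75013764 to 75051532, minus strand), known for its role in meiotic crossing over besides repair, had the lowest level of the 6 genes. It was at 2.43, 2.07 and 1.88 FPKM in wild type replicates 1 to 3, and in replicates 1 to 3 labelled IK-KO it was at 1.81, 1.51 and 1.83 FPKM. All 3 values labelled IK-KO were below all wild type values, by a narrow gap. The means were 2.13 ± 0.281 and 1.72 ± 0.178 FPKM (SD, n = 3 each). The log2 change of -0.20 did not pass the test (SE 0.14, 95% interval -0.54 to 0.13, limma adjusted p = 0.374), and the exact permutation test gave p = 0.1, two-sided. The deposited bounds of single MLH3 values had a half-width of 40.7% to 58.5%, those of PMS2 34.1% to 46.3%.

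Ratios among the MutL subunits did not separate the groups. PMS1 to PMS2 was 4.81 ± 0.554 in wild type and 5.28 ± 1.26 in libraries labelled IK-KO (SD, n = 3 each; exact permutation p = 0.8, two-sided). PMS2 to MLH3 was 1.46 ± 0.254 and 1.58 ± 0.133 (SD, n = 3 each; exact permutation p = 0.5, two-sided).

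EXO1 (ENSG00000174371.17, chromosome 1, 241847967 to 241895148, plus strand), the exonuclease of the pathway, did not pass the test although its groups did not overlap. It was at 19.7, 19.9 and 16.6 FPKM in wild type replicates 1 to 3, and in replicates 1 to 3 labelled IK-KO it was at 20.3, 22.0 and 21.1 FPKM. Wild type replicate 3 was the lowest, and the highest wild type value was close to the lowest labelled IK-KO. The means were 18.7 ± 1.85 and 21.1 ± 0.851 FPKM (SD, n = 3 each), with a log2 change of 0.17 (SE 0.09, 95% interval -0.03 to 0.37, limma adjusted p = 0.221). Without wild type replicate 3 the log2 change of EXO1 was 0.089. The exact permutation test gave p = 0.1, two-sided. The ratio of MSH6 to EXO1 FPKM was 1.67 ± 0.130 in wild type and 2.24 ± 0.139 in libraries labelled IK-KO (SD, n = 3 each), without overlap between groups (exact permutation p = 0.1, two-sided). This ratio holds the MSH6 values again and is not a separate result.

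EXO1 is a gene of dividing cells, so a list of 22 S-phase genes was set beside it. The list also counts MKI67, a general marker of proliferation, and UHRF1 was left out for its failed status. The summed level of the other 21 was 2038 to 2235 FPKM in wild type and 2221 to 2242 FPKM in libraries labelled IK-KO. Wild type replicate 3 had the lowest sum, as for EXO1. That library also had the lowest scaling factor over genes in general, 0.956 by the 75th percentile and 0.951 by the median ratio. A low value there is therefore not particular to EXO1 or to this list. Of these 21 genes, all tested, 4 were called, 19.0% against 19.9% of all tested genes. MCM3 and CDT1 rose (log2 changes 0.29 and 0.33), HELLS and MCM5 fell (-0.42 and -0.19), and 17 were not called. The list median was 0.01, against 0.02 over all tested genes. Without the mean-variance trend limma called 2 of the 21, MCM3 and CDT1. MCM3, a subunit of the replicative helicase, was called in all 13 other settings. CDT1, which loads that helicase, lost its call without wild type replicate 2 or IK-KO replicate 2 (adjusted p up to 0.0542). HELLS, a chromatin remodeler, and MCM5, another helicase subunit, each lost theirs in 5 of 6 leave-one-out fits (up to 0.131 and 0.111). The part of the S-phase level in the EXO1 values was not tested.

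Levels of the 6 genes followed one order in every library: MSH6, EXO1, PMS1, MSH3, PMS2 and MLH3. In mean FPKM over the 6 libraries they lay above 80.8%, 65.1%, 55.5%, 42.5%, 18.6% and 12.0% of the tested genes, in that order. MSH6 exceeded EXO1 by 1.54 to 2.40 times, with separate 95% bounds in 6 of 6 libraries. EXO1 and PMS1 had separate bounds in 3 of 6 libraries, PMS1 and MSH3 in 5 of 6, and MSH3 and PMS2 in 6 of 6. PMS2 and MLH3 had overlapping bounds in all 6 libraries, and their ranges overlapped over the libraries, so their order is not resolved. Within the recognition step, MSH6 was at 3.48 to 6.29 times MSH3.

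**Figure D3:**
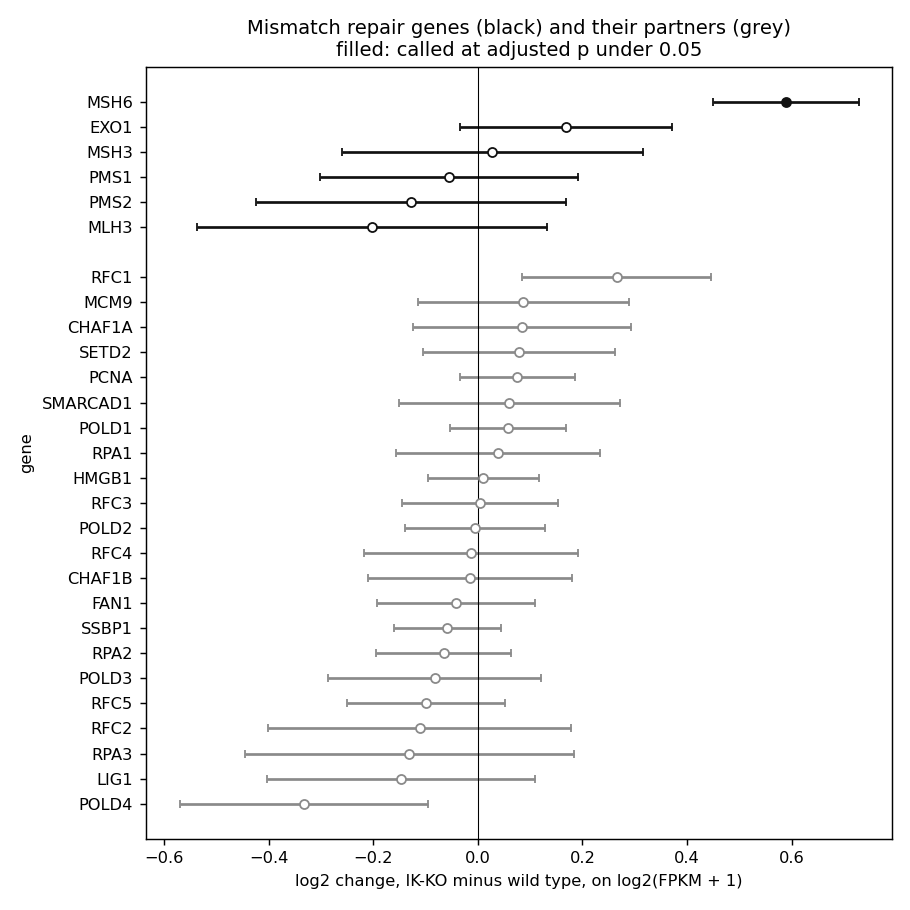
Log2 change of the 6 mismatch repair genes (black) and of 22 partner genes (grey), libraries labelled IK-KO minus wild type on the log2(FPKM + 1) scale (horizontal axis), with 95% intervals of the limma fit. Filled points are called at an adjusted p under 0.05. MSH6 at 0.59 is the single filled point, and the partners lie between -0.33 (POLD4) and 0.27 (RFC1).

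The 22 partner genes gave no call, against 19.9% of all tested genes. Groups did not overlap for 3 of the 22, against 39.0% of all tested genes. The list holds the clamp and its loader, single-strand binding proteins, DNA polymerase delta, a ligase, chromatin factors, and the nuclease and helicase genes FAN1 and MCM9. Among the single-strand binding proteins it counts SSBP1, which is mitochondrial. Their median log2 change was -0.01, against 0.02 over all tested genes, and 10 of the 22 were above 0. At an unadjusted p under 0.05 there were 2, RFC1 and POLD4, and limma without the mean-variance trend also called 0. PCNA, the sliding clamp, was at 619 ± 30.7 and 652 ± 7.12 FPKM, and HMGB1, a DNA-bending protein that assists excision, at 1226 ± 48.1 and 1235 ± 32.8 FPKM (SD, n = 3 each). LIG1, the ligase that seals the gap, was at 54.3 ± 7.06 and 48.9 ± 4.79 FPKM (SD, n = 3 each). The half-widths of the partners' 95% intervals were 0.10 to 0.32, and no interval reached a rise as large as that of MSH6.

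The partners closest to the threshold stood at opposite ends. RFC1, the large subunit of the clamp loader, was at 40.2 ± 3.59 and 48.4 ± 2.35 FPKM (SD, n = 3 each; log2 change 0.27, limma adjusted p = 0.051). It was called in 4 of the 13 other settings, among them the fit without wild type replicate 2 (adjusted p = 0.0260), over a range of 0.0260 to 0.144. POLD4, the smallest subunit of DNA polymerase delta, was at 10.5 ± 1.02 and 8.15 ± 0.652 FPKM (SD, n = 3 each; log2 change -0.33, limma adjusted p = 0.059), with a range of 0.0557 to 0.163.

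Other DNA repair lists were set beside mismatch repair. A list of 9 genes of damage signalling includes ATR, and it also counts MGMT, an alkyltransferase gene of direct repair rather than signalling. Of these 9 none was called by limma and 1 had an unadjusted p under 0.05. The fit without the trend also called 0, and the median log2 change was -0.02. Of 18 nucleotide excision repair genes none was called, 2 had an unadjusted p under 0.05, and the fit without the trend called 0. Of 19 base excision repair genes 2 were called, 10.5% of the list against 19.9% of all tested genes. POLB, the gap-filling polymerase of that pathway, rose from 47.0 ± 1.22 to 56.8 ± 2.52 FPKM (SD, n = 3 each; log2 change 0.27, limma adjusted p = 0.0148). OGG1, the glycosylase of oxidized guanine, fell from 8.54 ± 0.338 to 6.21 ± 0.440 FPKM (SD, n = 3 each; log2 change -0.41, limma adjusted p = 0.0188). POLB lost its call without wild type replicate 1 or IK-KO replicate 1 (adjusted p up to 0.0537), and OGG1 in 5 of 6 leave-one-out fits (up to 0.0637).

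Several of the 6 genes share their ground with other transcripts. MSH6 overlaps FBXO11, an F-box gene on the opposite strand (47789316 to 47905793). The overlap covers the canonical MSH6 transcript (47783145 to 47806953) from 47789316 to its 3′ end. FBXO11 was at 17.6, 19.7 and 15.4 FPKM in wild type replicates 1 to 3. In replicates 1 to 3 labelled IK-KO it was at 22.4, 21.1 and 20.6 FPKM. FBXO11 did not pass the test (log2 change 0.27, SE 0.10, limma adjusted p = 0.0929), though its groups did not overlap. Whether the quantification used strand is not given in the sources used here, so reads of the overlap may have been assigned to either gene. When MSH6 was summed with its overlapping genes of the opposite strand, the log2 change of the sum was 0.49.

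The divergent neighbours of PMS1 and PMS2, which start within 1000 bases of them on the opposite strand, were not called by limma. ORMDL1, a regulator of sphingolipid synthesis, starts 111 bases from PMS1 and overlaps its 5′ end. ORMDL1 was at 43.8 ± 4.25 and 47.1 ± 2.71 FPKM (SD, n = 3 each; limma adjusted p = 0.432). As for MSH6 and FBXO11, reads of the overlap may have been assigned to either gene. AIMP2, a scaffold of the tRNA synthetase complex, starts 223 bases from PMS2 and was at 19.8 ± 1.92 and 19.5 ± 1.53 FPKM (SD, n = 3 each; limma adjusted p = 0.924). In both pairs the neighbour was above the member.

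The 40 nearest tested genes of each member, 20 on either side, were set beside it. The neighbours of MSH6 spanned 11.9 megabases and had a median log2 change of 0.05, with 1 called higher and 1 lower. MSH6 was above 39 of the 40. Going outward, the nearest genes before MSH6 changed by 0.47, 0.17 and 0.78, the last being the neighbour above MSH6. Those after MSH6 changed by 0.27, -0.18 and 0.04, and none of these was called. The neighbours of EXO1 had a median of 0.17, against 0.06 over the tested genes of chromosome 1. Of these 40 neighbours 5 were called higher and 2 lower, where all tested genes gave 10.1% higher and 9.75% lower. EXO1 was above 19 of its 40 neighbours, and less their median its log2 change was -0.00. The neighbour medians of MSH3, PMS1, PMS2 and MLH3 were 0.01, 0.08, 0.02 and 0.01. The part of a regional difference in the MSH6 and EXO1 values was not tested, and no copy number data were used here.

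**Figure D4:**
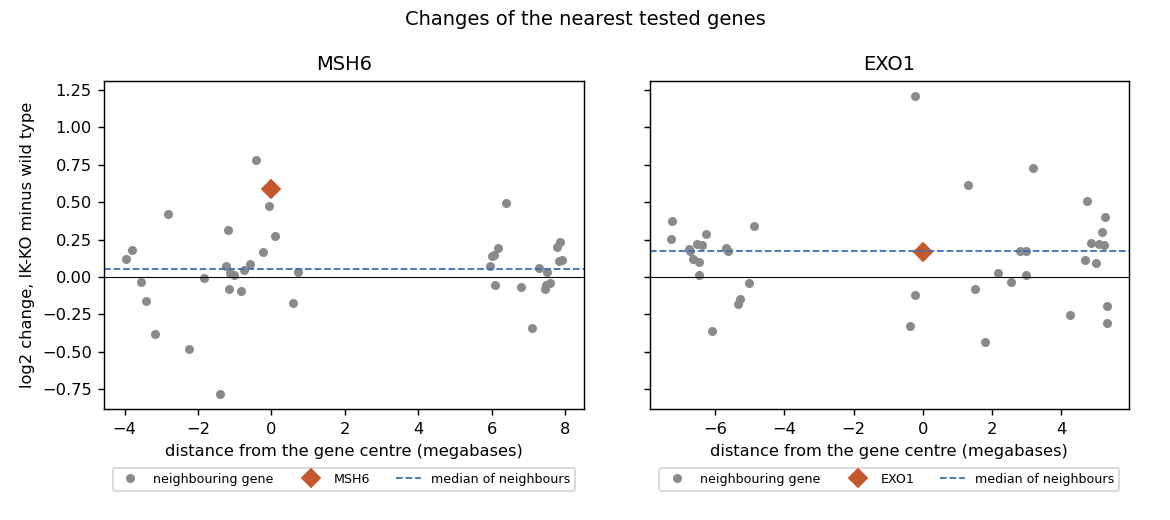
Log2 change (vertical axis, libraries labelled IK-KO minus wild type) of the 40 nearest tested genes of MSH6 (left) and of EXO1 (right) by distance from the gene centre in megabases (horizontal axis). Grey points are neighbours, diamonds MSH6 and EXO1, and dashed lines the medians of the neighbours, 0.05 and 0.17. MSH6 stands above 39 of its 40 neighbours and EXO1 on the median of its own.

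Over the 6 libraries, Pearson correlations between pairs of members ranged from -0.67 (PMS2 and EXO1) to 0.74 (MSH6 and EXO1), with 0.19 for MSH6 and MSH3. These are descriptions over 6 libraries that fall into 2 groups and share the depth of each library.

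The genes with the profile most like that of MSH6 among those with a mean FPKM of at least 5 were WT1 (the Wilms tumor transcription factor gene), PSPH, an enzyme of serine synthesis, and TMEM14B, each with a Pearson r of 0.999 over the 6 libraries. WT1 was at 12.2, 10.9 and 10.4 FPKM in wild type replicates 1 to 3, and in replicates 1 to 3 labelled IK-KO it was at 27.7, 25.9 and 24.1 FPKM. PSPH was at 27.2, 24.8 and 24.8 FPKM and at 48.8, 45.6 and 44.4 FPKM in the same order. All 3 genes shared with MSH6 both the difference between groups and the highest value in replicate 1 of each group, and 74 genes reached an r of at least 0.99.

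For the members that were not called, likeness rests on the scatter between libraries. USP15, a deubiquitinase, was most like MSH3 (r = 0.994), followed by ELMO2 and TSPOAP1-AS1. INTS10, an Integrator subunit, was most like PMS1 (0.976), followed by WASH3P and CLCN6. KBTBD4 was most like PMS2 (0.986), followed by BAG2 and BEX2. RBM18 was most like MLH3 (0.992), followed by SENP7 and LMF1. IPO9, a nuclear import receptor, was most like EXO1 (0.996), followed by HNRNPH1, a splicing factor, and CDC123. TSPOAP1-AS1 is an antisense gene and WASH3P has near-identical copies, so their values are uncertain.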

How the data were processed

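PolyA RNA of MOLT-4 was measured in 3 wild type and 3 IK-KO libraries, grouped by their labels. The authors deposited 1 table of FPKM per library, scaled for transcript length and mapped fragments, with confidence bounds and an estimation status. The submitters' processing notes name STAR 2.6.1c, Cufflinks 2.2.1, HOMER 4.10 and hg38, and the layout is that of Cufflinks. The annotation release and strand setting are not given in the sources used here. The labels name a NEBNext Ultra II kit, and the study's methods speak of merged technical replicates without naming libraries.

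Rows of 1 gene identifier were summed, and 29 identifiers with a failed status were left out. Of 49784 identifiers whose version is in GENCODE 44, 49771 lay at the same position. Counts could not be recovered (47.7% to 50.6% of low values lay within 0.05 of a whole number), so log2(FPKM + 1) was fitted with limma 3.58.1 in R 4.3.3 (mean-variance trend, two-sided) over genes whose mean FPKM was 1 or more. The fit was checked on simulated data. Single values were tested with exact permutation tests in SciPy 1.17.1. Bounds per library cover counting and assignment error only.

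Members and gene lists were chosen with earlier results of these data known. Named genes were the members, the listed genes that were called, IKZF1, divergent neighbours within 1000 bases (1 is not reported here), the PMS2 copies as a sum, and the 3 genes most like each member; other named genes were chosen after their values were seen. Alternatives were another pseudocount, filter, scaling and variance model, a replicate block, each library left out, and neighbours removed. All 6 members were matched in the RefSeq promoter table; no protein sequences were used here. Members of the pathway beyond those named were not analysed here.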

Additional observations from a re-analysis of the deposited data

How the results depend on the processing

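MSH6 was called higher in all 13 alternative fits, with log2 changes of 0.56 to 0.63 over the fits that left out 1 library, and the number of called members was 1 in each of the 13. Called genes overall ranged from 1692 to 2803, and from 1692 to 2004 with 1 library left out. The number of called partner genes was 1 with a mean FPKM of at least 5, with scaling to the 75th percentile and with scaling by the median ratio, and 0 to 1 with 1 library left out; the gene was RFC1 each time and the cause was not tested. With 1 library left out, the change of MSH3 ranged from -0.054 to 0.13, reversing to -0.04 without wild type replicate 3 and to -0.054 without IK-KO replicate 1, and that of PMS1 from -0.15 to 0.0099, reversing to 0.0099 without IK-KO replicate 1. The change of EXO1 was -0.0046 with neighbours removed. Summing MSH6 with the overlapping opposite-strand genes, an alternative chosen after seeing the data, gave 0.49. PMS2 (-0.21 to -0.07), MLH3 (-0.29 to -0.13) and EXO1 (adjusted p 0.156 to 0.413) were not called in any fit, and PMS2 and MLH3 could not be fitted with a mean FPKM of at least 5.

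Replicate numbers gave no clear pairing of the libraries. Same-numbered libraries deviated from their group means with correlations of 0.067, 0.025 and 0.005, and differently numbered ones with -0.088 to 0.060. The value of 0.067, for replicates numbered 1, was the highest of all pairs. With the replicate number as a block, 1805 genes were called, MSH6 had a limma adjusted p of 0.00698 and the MSH6 to MSH3 log2 ratio differed by 0.57 (exact permutation p = 0.25, the smallest for 3 pairs). Within this block no call of a member or partner changed, while OGG1, MCM5 and PMS2P1 were no longer called.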
